A study of Mus musculus with 12 samples.

Results

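Nuclear pore and nuclear transport genes were followed in the livers of Siah2 KO and wild type mice. They were the rows of both deposited count tables whose symbol began with Kpna or Kpnb and a digit, Nup and a digit, Xpo, Ipo and a digit, or Tnpo. The rule used names alone and no measured value, and it gave 45 of 23420 gene symbols. The 12 mice were 3 wild type females, 3 Siah2 KO females, 3 wild type males and 3 Siah2 KO males on a C57BL/6 background. They were about 20 weeks old, ate normal chow freely under a 12:12 light-dark cycle and were killed at ZT10, 10 hours after lights on. The KO mice were Siah2 -/- in all tissues, not in the liver alone, and both genotypes were homozygous lines derived from the same intercrossed heterozygotes. SIAH2 attaches ubiquitin to other proteins as a RING-domain ligase, and the study asked how its loss affected liver transcription in each sex.

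Proteins and RNAs pass between cytoplasm and nucleus through nuclear pores, large rings of nucleoporins set in the nuclear envelope. Importin alpha proteins (the Kpna genes) bind classical nuclear localization signals and are carried inward by importin beta 1, the product of Kpnb1, while other members of the importin beta family, among them the transportins, bind cargo directly. Exportins carry proteins, tRNAs and microRNA precursors out, and the small GTPase Ran, loaded with GTP inside the nucleus, sets the direction of these cycles. In hepatocytes, as in other cells, transcription factors, clock proteins and nuclear receptors enter the nucleus by these routes.

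Expression was measured with Lexogen QuantSeq, in which a transcript is read near its 3′ end, so a count does not grow with transcript length. Levels are given as CPM, a gene's count relative to the total count of its library, scaled with edgeR's TMM factors over all 12 mice. The libraries held 1293688 to 4056144 reads counted on genes, which made 1 read worth 0.246 to 0.765 CPM. The ribosomal RNA precursor Rn45s took 5.68% to 17.9% of a library. Siah2 itself was counted at 9.63 to 12.5 CPM in KO females and 11.5 to 16.97 CPM in wild type females, and at 9.42 to 17.4 CPM in KO males and 16.8 to 27.1 CPM in wild type males. The ranges overlapped in both sexes, and these counts were no check of the genotype labels, since the place of the disruption relative to the counted 3′ end was not given in the sources used here. Wild type female 1091 stood apart: its median correlation with the mice of its own group across genes was 0.916, against 0.942 to 0.967 for the other 11 mice. Hepatocyte markers summed to 28897 to 61464 CPM in every library, and dividing-cell markers summed to 10.8 to 25.7 CPM. The main results that rest on the wild type females are therefore also given without 1091. In whole liver, fewer cells of a type and less RNA per cell cannot be told apart.

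The promoters of Kpnb1 and Nup107 are shown because these genes gave the largest differences between the genotypes in females. Each window runs from 250 bases before to 50 bases after the RefSeq transcription start in GRCm38.p6, 5′ to 3′ on the minus strand. Capitals mark the GC box GGGCGG, the CCAAT box CCAAT and the ETS core CCGGAA, searched on both strands.
Kpnb1, chr11:97187843-97188142: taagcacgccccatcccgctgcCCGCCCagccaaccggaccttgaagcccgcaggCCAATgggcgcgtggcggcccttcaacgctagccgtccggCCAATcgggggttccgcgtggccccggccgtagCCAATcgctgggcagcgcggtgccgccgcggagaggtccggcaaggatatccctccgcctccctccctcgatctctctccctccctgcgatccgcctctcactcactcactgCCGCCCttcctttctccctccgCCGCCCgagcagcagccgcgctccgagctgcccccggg
Nup107, chr10:117792656-117792955: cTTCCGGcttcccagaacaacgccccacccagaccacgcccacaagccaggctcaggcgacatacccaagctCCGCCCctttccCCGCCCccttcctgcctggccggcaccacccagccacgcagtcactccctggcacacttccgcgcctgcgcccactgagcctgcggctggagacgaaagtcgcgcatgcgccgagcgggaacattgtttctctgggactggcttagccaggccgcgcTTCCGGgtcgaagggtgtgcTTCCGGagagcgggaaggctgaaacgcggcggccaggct
The Kpnb1 window held 3 CCAAT boxes and 3 GC boxes at 72% GC, and the Nup107 window held 2 GC boxes and 3 ETS cores at 68% GC. RefSeq windows were found for 35 of the 45 genes, 42 windows in all, with a median GC content of 64.5% against 52.7% over all 32851 windows. The GC box was present in 27 of the 42 windows (64.3%) and in 35.7% of all windows. A CCAAT box lay in 23 of them (54.8%, against 37.4%), and an ETS core in 12 (28.6%, against 14.9%). The E-box CACGTG was found in 7 windows (16.7%, against 7.15%), those of Ipo4, Ipo7, Nup188, Nup54, Nup93, Tnpo2 and Xpot. The nuclear receptor core motif AGGTCA was found in 1 window, that of Nup155 (2.38%, against 16.3%). These matches were not adjusted for GC content and are a description of the letters in the windows.

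The 45 genes together took 0.0635% to 0.106% of a library's counts. Averaged over the 12 mice, 5 of them were above 50 CPM, 23 were above 10 CPM and 4 were below 1 CPM. Over all 12 mice Kpnb1 had the highest mean level, 137 CPM, followed by Xpot, the tRNA exportin, at 91.9 CPM, the nuclear basket gene Nup50 at 82.0 CPM, and Tnpo3, the carrier of SR splicing factors, at 81.7 CPM. The last 3 of these had overlapping ranges over the mice, so their order is not resolved. In the wild type females the order differed, with Kpnb1 at a mean of 58.4 CPM below Tnpo3 at 87.5 CPM, Nup50 at 78.3 CPM and Xpot at 75.3 CPM.

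**Figure D1:**
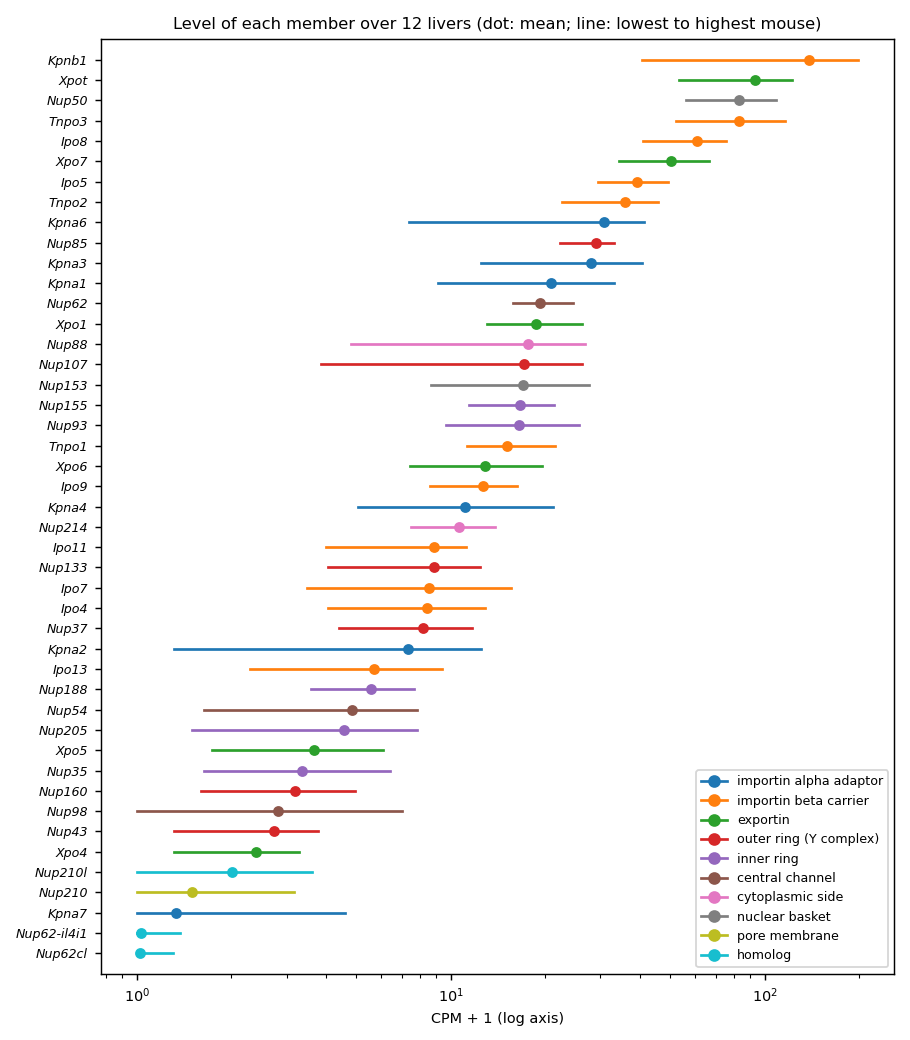
Mean level of each of the 45 genes over 12 livers (dot) with the lowest and highest mouse (line), as CPM + 1 on a log axis, colored by role. Kpnb1 sits at the top at a pooled mean of 137 CPM with a range that reaches down to 39.8 CPM, and 10 genes at the bottom were too low to test.

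Among the importin alpha adaptors, Kpna6 at 29.7 CPM, Kpna3 at 26.9 CPM and Kpna1 at 19.9 CPM gave most of the counts, and Kpna2, the adaptor typical of dividing cells, stood at 6.30 CPM. Kpna7, known from oocytes and early embryos, had 7 counts in all, 6 of them in Siah2 KO female 1105. Of the importin beta carriers, Kpnb1, Tnpo3 and Ipo8 (60.0 CPM) were highest, and Tnpo1, the carrier of many RNA-binding proteins, was at 14.1 CPM. Xpot made up 43.7% to 59.2% of all exportin CPM in every mouse. Xpo7 stood at 49.3 CPM, and Xpo1, the general exportin for leucine-rich export signals, at 17.7 CPM.

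Nucleoporin transcripts were mostly lower than those of the carriers. Of the outer ring, or Y complex, which scaffolds both faces of the pore, Nup85 stood at 28.1 CPM, Nup107 at 16.2 CPM and Nup133 at 7.88 CPM. In the inner ring, Nup155 and Nup93 were at 15.6 and 15.5 CPM and Nup188 at 4.57 CPM. The central channel gene Nup62 was at 18.3 CPM and its partner Nup54 at 3.84 CPM. On the cytoplasmic face, where exported complexes are released, Nup88 was at 16.6 CPM and Nup214 at 9.63 CPM. The other basket gene among the 45, Nup153, was at 16.1 CPM.

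A filter on low counts left 35 of the 45 genes for the tests in females, between the sexes and for the difference of the genotype changes, and 34 in males, where Xpo5, the exporter of microRNA precursors, was also too low. The other 10 were below the filter in every comparison. Over all 12 mice these had 80 counts for Nup35, 72 for Nup160, 58 for Nup43, 53 for Nup98, 43 for Xpo4, 33 for Nup210l, 15 for Nup210, 7 for Kpna7 and 1 each for Nup62-il4i1 and Nup62cl. The spread of the tested genes between mice of a group, as a median coefficient of variation, was 26.5% in wild type females, 15.3% in Siah2 KO females, 21.2% in wild type males and 17.8% in Siah2 KO males. Over all genes tested it was 29.2%, 19.7%, 22.0% and 19.0% in the same order, so the wild type females were the most variable group. Without 1091 the medians in wild type females were 15.5% for the transport genes and 13.9% for all genes, over 2 mice.

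**Figure D2:**
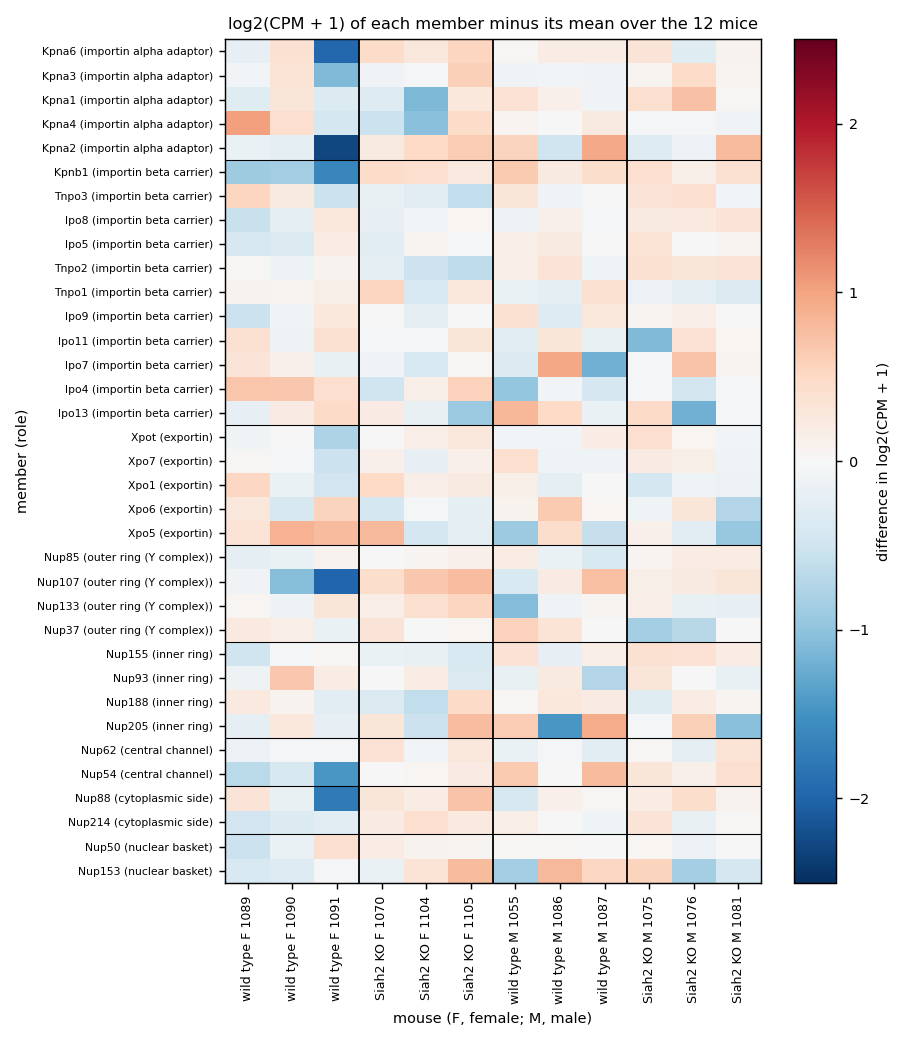
Difference of log2(CPM + 1) from the mean over 12 mice for each tested gene (rows, ordered by role) in each mouse (columns, by group). Kpnb1 is below its mean in all 3 wild type females and near or above it in the other 9 mice, and wild type female 1091 holds the lowest values of Kpna2, Kpna6, Nup88 and Nup107.

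Females were compared first, to see what the loss of SIAH2 did in that sex. Kpnb1 and Nup107 were higher in Siah2 KO females, by 2.77-fold and 3.03-fold, but neither passed the edgeR test with adjustment over all genes. Kpnb1, which lies at chr11:97159710-97187892 with no overlapping annotated gene, stood at 67.5, 67.8 and 39.8 CPM in the wild type females and at 174, 167 and 148 CPM in the Siah2 KO females. All 3 KO females were above all 3 wild type females, with 246 to 642 counts against 125 to 226. The log2 fold change of Kpnb1 was 1.47 (SE 0.26, 95% interval 0.89 to 2.05), with an adjusted p of 0.0793 in edgeR's quasi-likelihood test and 0.000122 in DESeq2. Mean levels of Kpnb1 were 58.4 ± 16.1 CPM in wild type and 163 ± 13.3 CPM in KO females (SD, n = 3).

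Nup107, a Y complex scaffold gene at chr10:117750621-117792736 with no overlapping gene, stood at 13.4, 6.30 and 2.87 CPM in the wild type females and at 19.8, 23.6 and 25.3 CPM in the KO females. The groups did not overlap, and the lowest value, 9 counts, was that of 1091. Its log2 fold change was 1.60 (SE 0.46), with an adjusted p of 0.145 in edgeR and 0.0350 in DESeq2. Nup214, which holds export complexes at the cytoplasmic face, stood at 6.497, 7.20 and 7.64 CPM in wild type and 11.1, 12.9 and 11.4 CPM in KO females. These groups did not overlap either and differed by a log2 fold change of 0.71 (SE 0.30), with an adjusted p of 0.291 in edgeR (0.78 and 0.140 without 1091). Nup214 overlaps other annotated genes (Fam78a among them) and its reads cannot be assigned with certainty, since the use of strand in counting was not given.

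In edgeR 0 of 9465 genes passed an adjusted p of 0.05 in females (0%), and accordingly 0 of the 35 tested transport genes. At an unadjusted p under 0.05 the transport genes were 3 of 35, all higher in KO (Kpnb1, Nup107 and Nup214), where 15.6% of all genes reached that level and 7.3% were higher. DESeq2 called 2 of the 29 transport genes it adjusted, Kpnb1 and Nup107, and 3.7% of all genes. In total 21 of the 35 were higher and 14 lower in KO females, where 47.3% of all genes were higher, with a median log2 fold change of 0.09 against -0.03 over all genes tested.

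Without 1091, edgeR called 936 of 9709 genes in females (9.64%), and 3 of 36 transport genes were among them. Kpnb1 then rose by a log2 fold change of 1.27 (adjusted p = 0.00381, edgeR) and Nup107 by 1.22 (adjusted p = 0.0413, edgeR). Tnpo3 fell by 0.73 on the log2 scale (adjusted p = 0.0443, edgeR), from 116 and 92.7 CPM in the other 2 wild type females to 69.5, 66.3 and 51.2 CPM in the KO females. Tnpo3 in 1091 was at 54.1 CPM, within the range of the KO females, and with 1091 kept its log2 fold change was -0.50 (adjusted p = 0.461, edgeR). The gene overlaps Irf5 at its locus, chr6:29540827-29609858. When 1091 was kept but weighted down by its quality (weight 0.181, other females 1.03 to 1.75), limma-voom called 11.2% of all genes and 3 of the 35 transport genes, Kpnb1, Nup107 and Kpna4.

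**Figure D3:**
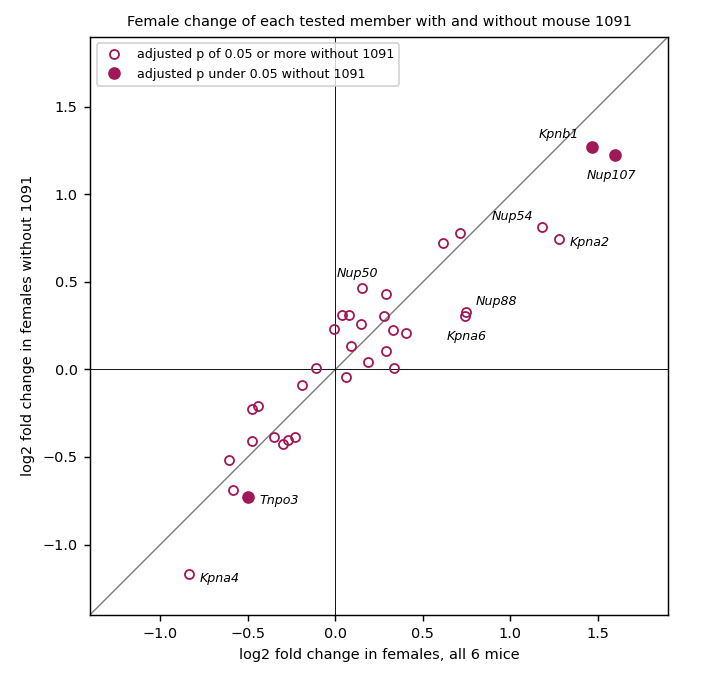
Log2 fold change (Siah2 KO against wild type) of each transport gene tested both ways in females, with all 6 mice (x axis) and without wild type female 1091 (y axis); the gray diagonal marks equal values. Kpnb1 and Nup107 stay at the upper right at 1.27 and 1.22 without 1091, while Kpna2, Kpna6 and Nup88 move toward 0.

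The extremes of single females were counted next. In the 6 females, 1091 had the lowest level of 11 of the 35 transport genes, where it was lowest for 29.7% of all genes tested. It had the highest level of 9, where it was highest for 26.1%, so both counts were near the shares over all genes. KO female 1105, with 1671189 counted reads the smallest female library, had the highest level of 12 and the lowest of 4. It was highest for 19.2% and lowest for 19.3% of all genes tested. The 11 genes lowest in 1091 included 3 importin alpha genes. Kpna6 was at 6.37 CPM in 1091 and at 23.8 and 36.3 CPM in the other wild type females. Kpna2 was at 0.319 CPM in 1091, a single count, and at 4.69 and 4.50 CPM in the other 2. The KO females had 6.49 to 9.03 CPM of Kpna2, and its log2 fold change was 1.28 (SE 0.63), with an adjusted p of 0.368 in edgeR (0.75 and 0.264 without 1091). Over the dividing-cell markers, the summed levels of wild type females (16.2 to 20.4 CPM) lay within those of KO females (12.2 to 25.7 CPM). Fat cell markers, with Plin1 at 0, did not overlap, at 47.8 to 54.9 CPM in wild type and 57.8 to 110 CPM in KO females, and neither did the red cell list, of which 1 gene, Alas2, was detected, at 20.1 to 25.2 and 8.47 to 19.3 CPM. The part of these lists in the differences between the genotypes was not tested.

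By level, 6 of the 35 genes had all KO females above all wild type females (Nup107, Xpot, Kpnb1, Kpna2, Nup214 and Nup54), where 11.4% of all genes did. Tnpo2, a close relative of Tnpo1, was the 1 gene with all KO females below, at 28.7, 23.6 and 21.7 CPM against 35.01, 31.2 and 36.3 CPM, where 11.9% of all genes were. Its log2 fold change was -0.48 (SE 0.24), with an adjusted p of 0.370 in edgeR (-0.41 and 0.264 without 1091). Without 1091, 12 of the 35 had all KO females above and 4 had all KO females below the remaining wild type females, where 21.6% and 21.2% of all genes did. Nup54 rested on few reads, 2 to 8 counts in wild type and 7 to 13 in KO females, and its log2 fold change of 1.18 (SE 0.56) had an adjusted p of 0.344 in edgeR (0.81 and 0.395 without 1091). Nup54, Xpot and Kpna2 overlap the annotated genes Gm42114, Gm35816 and Gm39424. Like those of Nup214, their reads cannot be assigned with certainty.

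Described by role, all 4 tested Y complex genes were higher in KO females (median log2 fold change 0.22), as were both genes each of the central channel, the cytoplasmic face and the basket, and 2 of these 10 genes, Nup107 and Nup214, had an unadjusted p under 0.05. Of the 4 inner ring genes 3 were lower. The importin beta carriers were divided, 4 higher and 7 lower. Added up, the 6 Y complex genes, 2 of them too low to test, gave 53.1 ± 5.33 CPM in wild type and 73.9 ± 2.86 CPM in KO females (SD, n = 3). Wild type females without 1091 averaged 54.96 CPM, and wild type and KO males had 62.9 ± 2.80 and 63.2 ± 2.98 CPM. Nup107 alone gave 7.51 CPM of the wild type and 22.9 CPM of the KO female sum, most of the difference in that sum. Y complex genes outside the naming rule were not in it, such as Sec13, with means of 43.1 CPM in wild type and 71.9 CPM in KO females. The female log2 fold changes of Nup37, Nup85 and Nup133 were 0.06, 0.15 and 0.29. The importin alpha genes of wild type females added up to 79.6 ± 36.4 CPM and those of KO females to 99.5 ± 25.9 CPM, a difference smaller than the spread between mice. It came from 1091, at 39.5 CPM, and the other 2 wild type females averaged 99.6 CPM.

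Kpnb1 also took a different part of its own class. Of the summed CPM of the 11 importin beta carriers among the 45 genes, it made up 19.6%, 20.7% and 13.0% in the wild type females. In the KO females it made up 42.4%, 42.1% and 39.2%. In males the share was 34.1% to 41.0% in wild type and 31.1% to 36.7% in KO, so the wild type females lay below the other 9 mice. Summed over the carriers, wild type females reached 326 ± 18.2 CPM and KO females 395 ± 16.1 CPM (SD, n = 3), with 336 CPM in wild type females without 1091. All 45 genes summed to 786 ± 68.4 and 961 ± 40.0 CPM in these groups, and without Kpnb1 the other 44 summed to 728 ± 52.4 and 798 ± 50.8 CPM. Without 1091 the wild type females averaged 826 CPM over all 45 genes and 758 CPM over the 44, so the difference over the 44 genes was smaller than with 1091 kept.

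The same comparison in males gave no call. Kpnb1 stood at 198, 146 and 170 CPM in the wild type males and at 169, 139 and 163 CPM in the Siah2 KO males, with overlapping groups. Its log2 fold change was -0.13 (SE 0.16), and the 95% interval of -0.48 to 0.22 lay below the interval in females. Nup107 stood at 10.7, 16.6 and 24.8 CPM in wild type and 15.8, 16.9 and 18.0 CPM in KO males, the KO values falling within the wild type range. Its log2 fold change was -0.11 (95% interval -0.73 to 0.51).

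In edgeR 0 of 8823 genes were called in males (0%) and 0 of 34 transport genes. None of the 34 had an unadjusted p under 0.05, where 4.05% of all genes did, and DESeq2 called 6 genes (0.037%), none of them a transport gene. The median log2 fold change of the 34 was -0.03, with 16 higher (48.1% of all genes were) and 18 lower. Kpna3 and Ipo8 had all KO males above all wild type males (4.45% of all genes did), and Kpna4 had all KO males below (4.42%). For Ipo8 the levels were 54.3, 64.3 and 57.3 CPM in wild type and 69.0, 69.9 and 74.4 CPM in KO males, a log2 fold change of 0.27 (SE 0.17). Kpna4 differed little in size, with 9.55 to 11.1 CPM in wild type and 8.87 to 9.11 CPM in KO males. The smallest unadjusted p was that of the Y complex gene Nup37, whose log2 fold change was -0.82 (SE 0.41, unadjusted p = 0.0652, edgeR) and which was singled out after its value was seen. Bile duct markers separated the genotypes in males, at 47.4 to 56.3 CPM in wild type and 27.8 to 36.2 CPM in KO, and their part in the male values was not tested.

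**Figure D4:**
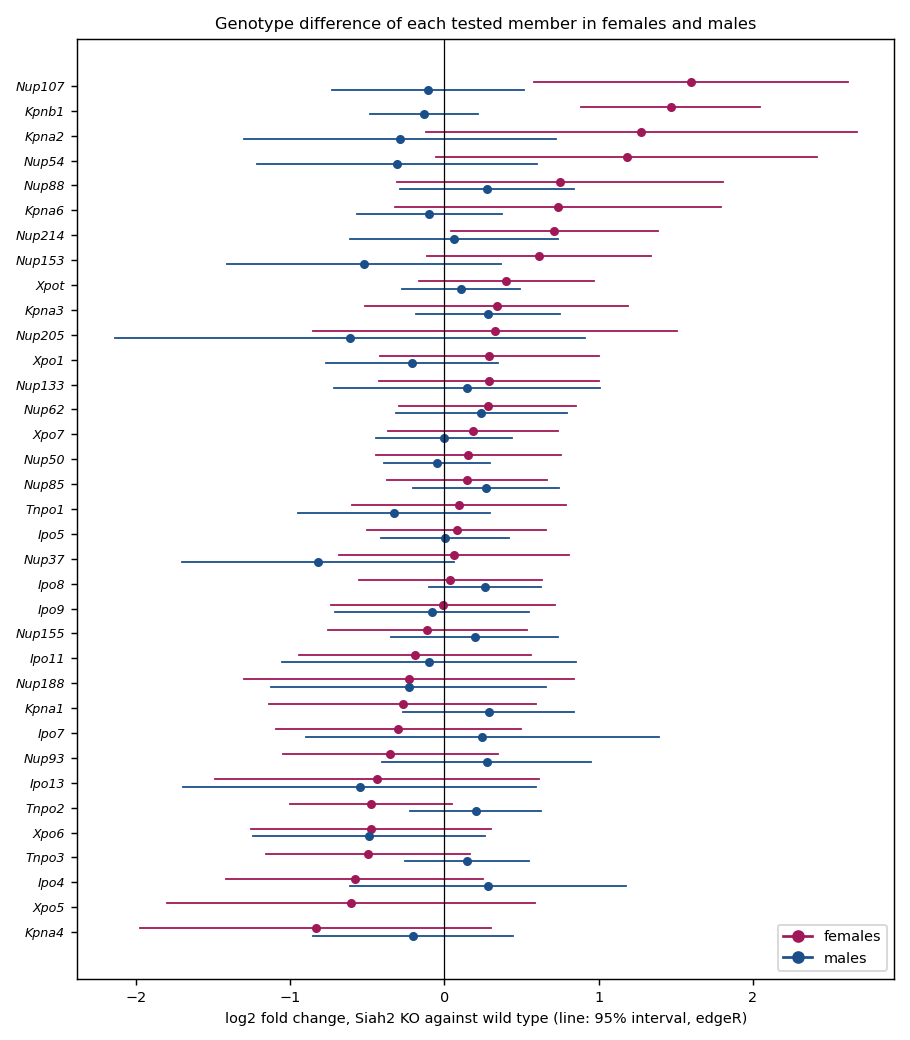
Log2 fold change of Siah2 KO against wild type for each tested transport gene in females (purple) and males (blue), with its 95% interval from edgeR. The intervals of Kpnb1 in the sexes do not overlap, and every interval in males crosses 0.

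Whether the genotype change differed by sex was tested directly in 1 model of all 4 groups, by subtracting the male change from the female change. Kpnb1 was the transport gene that passed. Its change was larger in females by 1.61 on the log2 scale (SE 0.31, 95% interval 0.95 to 2.26), with an adjusted p of 0.0474 in edgeR and 0.000118 in DESeq2. It was 1 of 35 transport genes called, where 0.255% of all genes were called, 25 of 9806. Without 1091 the difference was 1.40 (adjusted p = 0.00463, edgeR, with 5.15% of all genes called), and without any other single mouse it was no longer called, with adjusted p values in edgeR up to 0.146. With all libraries thinned to the smallest total the adjusted p of Kpnb1 was 0.113 in edgeR.

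Another 3 genes had an unadjusted p under 0.05 for this difference (14.1% of all genes did), and none of them passed the adjustment. They were Nup107 at 1.70 (SE 0.56, adjusted p = 0.178, edgeR), Nup54 at 1.49 (SE 0.69, adjusted p = 0.346, edgeR) and Tnpo2 at -0.67 (SE 0.29, adjusted p = 0.307, edgeR). Without 1091 the values were 1.33 for Nup107, 1.12 for Nup54 and -0.61 for Tnpo2, with adjusted p values of 0.102, 0.389 and 0.236 in edgeR. Tnpo2 was lower in KO females and stood at 44.9, 42.5 and 43.1 CPM in KO males against 38.2, 43.2 and 31.9 CPM in wild type males. The Tnpo2 locus, chr8:85036873-85057585, overlaps the annotated gene A230103J11Rik. The median difference was 0.08 over the 35 genes and -0.02 over all genes tested, and 23 of the 35 were positive, against 48.4% of all genes.

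Wild type females and males were compared to see the sex difference without loss of SIAH2. This comparison, the comparison in females and the difference between the sexes share the same 3 wild type females, so their values are not independent. Kpnb1 was 2.88-fold lower in wild type females than in wild type males and passed the test. The log2 difference, females minus males, was -1.53 (SE 0.27, 95% interval -2.12 to -0.93), with an adjusted p of 0.0212 in edgeR and 2.81e-05 in DESeq2. It was 1 of 35 transport genes called, where 1.39% of all genes were, 130 of 9335. Without 1091 Kpnb1 stayed lower by 1.33 on the log2 scale (adjusted p = 0.00311, edgeR, with 7.73% of all genes called). The call was lost without wild type female 1089 or without any wild type male, with adjusted p values between 0.0525 and 0.125 in edgeR.

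Another 3 genes had an unadjusted p under 0.05 here, where 15.2% of all genes did. Ipo4, an importer of histones, stood at 11.9, 11.7 and 9.56 CPM in wild type females and 3.06, 6.53 and 4.95 CPM in wild type males. It was the 1 transport gene with all females above all males (11.5% of all genes were), by a log2 difference of 1.17 (SE 0.37, adjusted p = 0.177, edgeR). Nup54 stood at 1.80, 2.40 and 0.637 CPM in females and 6.12, 3.52 and 6.81 CPM in males, a log2 difference of -1.72 (SE 0.56, adjusted p = 0.187, edgeR). Nup107 differed by -1.24 (SE 0.51, adjusted p = 0.280, edgeR), with overlapping groups. Without 1091 the log2 differences were 1.23 for Ipo4, -1.36 for Nup54 and -0.90 for Nup107, with adjusted p values of 0.0755, 0.156 and 0.211 in edgeR.

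Of the 35 genes 12 were higher in wild type females, against 54.7% of all genes, and the median log2 difference was -0.15 against 0.05. Kpnb1, Nup54 and Nup214 had all wild type females below all wild type males (11.2% of all genes did). Without 1091, 6 of the 35 had all wild type females below and 2 had all of them above, where 21.2% and 20.6% of all genes did. Kpnb1, Nup54 and Nup214 also had all wild type females below the other 9 mice, where 3.57% of all genes did. None of the 35 had all wild type females above the other 9 mice, where 3.66% of all genes did. Hepatocyte markers summed to 45448 to 61464 CPM in wild type females and 31380 to 42093 CPM in wild type males, so they too separated these groups. Endothelial markers, at 214.9 to 300.7 CPM in the females and 168 to 214.6 CPM in the males, did so narrowly. The bile duct markers summed to 9.87 to 45.1 CPM in the females and 47.4 to 56.3 CPM in the males, and the red cell list, of which the 3 globin genes were at 0, to 20.1 to 25.2 and 83.9 to 105 CPM. The part of these lists in the differences between the sexes was not tested.

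**Figure D5:**
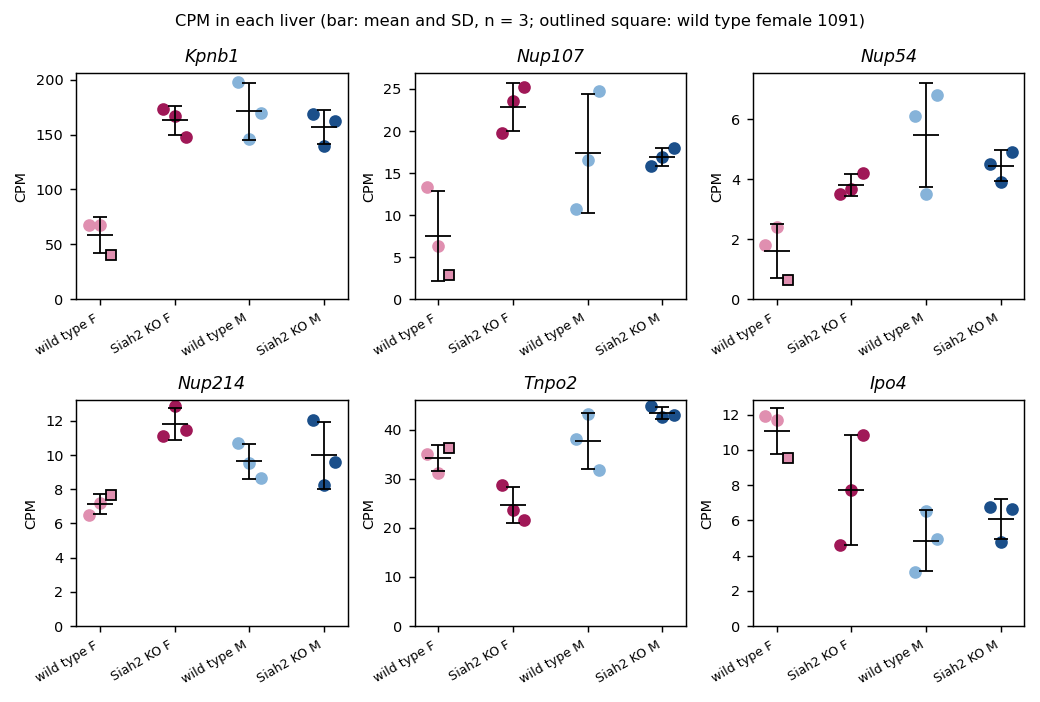
CPM of 6 transport genes in each liver by group, with the mean and SD (n = 3); the outlined square is wild type female 1091. Wild type females are the low group for Kpnb1, Nup54 and Nup214, and Siah2 KO females are the low group for Tnpo2. Wild type females have the highest mean of Ipo4 but overlap KO females, with KO female 1105 at 10.8 CPM above 1091 at 9.56 CPM.

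A list of 63 other genes of nuclear transport, among them the Ran cycle, further carriers and pore proteins, mRNA export factors and the nuclear lamina, was read from the same fits, and 59 of them were in the tables. In females 52 were tested in edgeR and 0 passed (0% of all genes), while DESeq2 called 2 of the 50 it adjusted (3.7%). In edgeR 9 of the 52 had an unadjusted p under 0.05 (15.6%), 5 higher and 4 lower in KO. The median log2 fold change of the 52 was 0.02. In males 49 were tested in edgeR, 0 passed and 3 had an unadjusted p under 0.05 (4.05% of all genes). DESeq2 called 0 of the 59 it adjusted in males. For the difference between the sexes 2 of 51 passed, Rcbtb1 and Alyref (0.255% of all genes), and between wild type females and males 1 of 50 passed, Rcbtb1 (1.39%). This list was chosen with earlier results of these data known. Its counts can therefore not be tested against the shares over all genes.

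Rcbtb1 encodes a protein with RCC1 repeats and a BTB domain and entered the list for these repeats, although it is not an established regulator of Ran. It stood at 105, 113 and 37.9 CPM in the wild type females and at 383, 344 and 450 CPM in the KO females. The males had 327 to 436 CPM in wild type and 307 to 459 CPM in KO, so the wild type females lay below the other 9 mice (3.57% of all genes did). Its log2 fold change in females was 2.19 (SE 0.38, adjusted p = 0.0793, edgeR), and without 1091 it rose by 1.85 (adjusted p = 0.00136, edgeR). The female change of Rcbtb1 exceeded the male change by 2.29 (SE 0.44, adjusted p = 0.0474, edgeR), and the log2 difference of wild type females from wild type males was -2.17 (SE 0.37, adjusted p = 0.0195, edgeR). Without 1091 these values were 1.95 (adjusted p = 0.00234, edgeR) and -1.83 (adjusted p = 0.000453, edgeR). The call of Rcbtb1 for the difference held without 1090 or 1091 and was lost without each of the other 10 mice, with adjusted p values up to 0.149 in edgeR. Its call between the wild type groups was lost without any wild type male, with adjusted p values up to 0.113.

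Alyref, an adaptor that loads mRNA for export, stood at 7.22, 5.402 and 1.91 CPM in the wild type females and 14.6, 23.6 and 16.3 CPM in the KO females. In males it was at 11.5, 16.1 and 13.0 CPM in wild type and 9.80, 6.08 and 5.91 CPM in KO. In both sexes the genotypes of Alyref did not overlap, in opposite directions. All KO females were above all wild type females for 11.4% of all genes. All KO males were below all wild type males for 4.42%. The log2 fold change of Alyref was 1.89 in females (SE 0.44, adjusted p = 0.109, edgeR) and 1.53 without 1091 (adjusted p = 0.0192, edgeR). In males it was -0.92 (SE 0.33) and did not pass, with an unadjusted p of 0.0140 and an adjusted p of 0.9999 in edgeR. The difference between the female and male changes, 2.82 (SE 0.55), passed with an adjusted p of 0.0474 in edgeR. Without 1091 it was 2.45 (adjusted p = 0.00768, edgeR), and without each other mouse the call of Alyref was lost, with adjusted p values up to 0.160 in edgeR. Rcc1, the exchange factor that loads Ran with GTP, was at 21.3, 27.3 and 11.1 CPM in wild type and 12.4, 5.89 and 4.82 CPM in KO females, with overlapping groups. Its log2 fold change was -1.32 (SE 0.44, adjusted p = 0.199, edgeR), and without 1091 it fell by 1.56 on the log2 scale (adjusted p = 0.0221, edgeR). Sec13, a Y complex and COPII coat subunit, averaged 43.1 ± 5.58 CPM over the wild type females against 71.9 ± 10.1 CPM over the KO females (SD, n = 3), a log2 fold change of 0.73 (SE 0.23, adjusted p = 0.182, edgeR; 0.66 and 0.0612 without 1091). Zc3h11a, an mRNA export factor, differed by -0.92 in females (SE 0.27, adjusted p = 0.156, edgeR), and without 1091 it fell by 1.09 on the log2 scale (adjusted p = 0.0104, edgeR).

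The remaining genes of the list that were among the 5 with the smallest p in a comparison did not pass in it. In males they were Ddx19a, an mRNA export helicase, at a log2 fold change of 1.05 (SE 0.40) and Sarnp at -0.52 (SE 0.23). For the difference between the sexes they were Thoc1, a THO complex subunit, at 1.13 (SE 0.35), Nxt2 at -2.14 (SE 0.74) and Rcc1 at -1.55 (SE 0.54). Between wild type females and males they were Alyref at -1.47 (SE 0.45), Tor1aip1 at -0.96 (SE 0.29), Snupn, the import adaptor of spliceosomal snRNPs, at 1.12 (SE 0.39), and the nuclear envelope gene Emd at 0.61 (SE 0.23). Of these genes edgeR, without 1091, called Nxt2 (-2.58, adjusted p = 0.00821) and Rcc1 (-1.82, adjusted p = 0.0330) for the difference between the sexes, and Tor1aip1 (-0.71, adjusted p = 0.0489) between the wild type groups.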

How the data were processed

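Liver RNA of 12 mice was profiled by QuantSeq. The authors trimmed, mapped and counted reads on Illumina's BaseSpace and deposited raw read counts per gene symbol, 1 table per sex. The submitters' processing notes name STAR, DESeq and mm10; their versions, the annotation and the strand setting were not given in the sources used here. Per the labels RNA was pooled from 3 mice, per the paper livers were individual, and the latter was used. The 27 symbols turned into dates by a spreadsheet stayed in the totals.

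Each comparison was fitted over all genes with edgeR 4.0.16 in R 4.3.3 (filterByExpr, TMM, quasi-likelihood test, two-sided, Benjamini-Hochberg adjustment, threshold 0.05), and the transport genes were read from it. The script was tested on simulated data. Alternatives were DESeq2 1.42.0, limma-voom (limma 3.58.1) with and without quality weights, RLE scaling, a filter of only 1 count, a filter of 10 counts in each library, libraries thinned to the smallest total, a fit of all 12 mice and each mouse left out. DESeq2 without 1091 was added after the data were seen. The standard error was derived from the test statistic, and an adjusted p that DESeq2 gave as NA was left out.

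The rule for the members used names alone, but the members and lists were chosen with earlier results of these data known. Named were genes with an unadjusted p under 0.05 or a call in edgeR or a call in DESeq2, the 3 most abundant per role, Kpnb1, Kpna2, Tnpo1, Xpo1 and Nup107, and per comparison up to 5 genes of the wider list; other genes, such as Kpna4 and Nup37, were named after their values were seen. Positions and promoters are from RefSeq on GRCm38.p6, where 44 of the 45 symbols were matched. The paper does not mention molecular identifiers, so repeated reads of the same molecule may be among the counts. The number of reads is then not the number of molecules.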

Additional observations from a re-analysis of the deposited data

Results flagged for a closer look

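The genotype change differed between the sexes by a direct test in 3 genes. They were 1 of the 35 tested transport genes and 2 of the 51 tested genes of the wider list, where 0.255% of all genes were called. The transport genes followed from a rule on names. Both they and the wider list were chosen with earlier results of these data known. The female change minus the male change was 1.61 on the log2 scale for Kpnb1, 2.29 for Rcbtb1 and 2.82 for Alyref. Each had an adjusted p of 0.0474 in edgeR with adjustment over all genes. Alyref was higher in KO females (log2 fold change 1.89) and lower in KO males (-0.92), so its value joins opposite changes. The male change of Alyref alone did not pass (adjusted p = 0.9999, edgeR). Kpnb1 and Rcbtb1 had their lowest levels in the 3 wild type females, where all 3 lay below the other 9 mice. In 3.57% of all genes the wild type females lay below the other 9 mice. Leaving out 1 mouse ended these calls in most cases. Kpnb1 and Alyref remained called without 1091 alone, and Rcbtb1 without 1090 or without 1091. With 3 mice in a group, no test for a single outlying mouse was made.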

How the results depend on the processing

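The counts of transport genes called rest on 3 mice per group and on the wild type females. In females the count of 0 became 2 with DESeq2 (with or without 1091), with a filter of only 1 count and in a fit of all 12 mice, and 3 with quality weights. The shares of all genes called were 3.7% (DESeq2), 2.82% (filter of 1 count), 4.35% (12 mice) and 11.2% (quality weights). DESeq2 without 1091 called 786 of 8116 genes and 2 of 30 transport genes. Leaving out 1 mouse gave 0 to 3, the 3 without wild type female 1091 and 0 without each other mouse. In males it was 0 under every alternative run. For the difference between the sexes the count of 1 became 2 with a filter of only 1 count (1.82% of all genes) and 0 with thinned libraries (0.143%), and 0 to 1 with 1 mouse left out, 1 being without 1091. Between wild type females and males it became 2 with quality weights (8.59%) and 0 with thinned libraries (1.15%), and 0 to 1 with 1 mouse left out. The cause of these moves was not tested, except that thinning leaves fewer reads. For the wider list, 3 calls over the 4 comparisons became 5 with DESeq2, 11 with a filter of only 1 count and 19 with quality weights, and 0 to 16 with 1 mouse left out, 16 being without 1091. The share of all genes called rose too, with quality weights to 11.2% in females, 5.69% for the difference and 8.59% between the wild type groups, and without 1091 to 9.64%, 5.15% and 7.73%. With DESeq2 the shares in the same order were 3.7%, 3.89% and 3.74%, and with a filter of only 1 count 2.82%, 1.82% and 3.17%. Kpnb1 kept its direction in all 3 comparisons that turn on it, with a log2 fold change of 1.27 to 1.59 in females (called in 6 of 15 alternatives), 1.40 to 1.72 for the difference (8 of 20) and -1.67 to -1.33 between the wild type groups (10 of 15). Nup107 in females ranged from 1.22 to 2.28 and was called in 6 of 14. No gene with an unadjusted p under 0.05 that the text names in a comparison reversed in it. No paired analysis was possible because each mouse has its own number.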
